A study of Rattus norvegicus with 15 samples.

Results

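The genes described here are 10 genes of glycolysis and of the response to low oxygen in irradiated rat brain microvascular endothelial cells (BMECs), namely Hk2, Pfkfb3, Pfkp, Aldoa, Pgk1, Pkm, Ldha, Pdk1, Bnip3 and Vegfa. They were chosen by name, and all 10 were found among the 37367 genes of the deposited expression table. That number includes assembled loci without a gene name. The study asked how the dose of x-rays and the time after exposure change transcript levels in BMECs. Primary cultures were prepared from the cerebral microvessels of 6 Sprague Dawley rats, littermates of both sexes aged 2 to 3 weeks. There were 5 groups of 3 libraries each: unexposed controls labelled as cultured for 12 h, and cells collected 12 h or 24 h after 5 Gy or 20 Gy. The control cells went through every step except the exposure. No unexposed group at 24 h was analysed here, so at 24 h the time in culture and the exposure cannot be told apart. The labels do not tie libraries to rats, so the p-values measure the spread between these cultures.

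Glycolysis turns glucose into pyruvate in the cytosol. Hexokinase 2 (Hk2) traps glucose in the cell as its phosphate, phosphofructokinase (the platelet type is Pfkp) commits it to the pathway, and Pfkfb3 makes the sugar bisphosphate that activates phosphofructokinase. Aldolase A (Aldoa), phosphoglycerate kinase 1 (Pgk1) and pyruvate kinase M (Pkm) carry the later steps, lactate dehydrogenase A (Ldha) turns pyruvate into lactate, and Pdk1 limits the use of pyruvate in the mitochondria. When oxygen is low, the Hif1a subunit of the factor HIF-1 (Hif1a with Arnt) is no longer degraded, and HIF-1 raises the transcription of many of these genes together with Bnip3, a mitochondrial protein of mitophagy, and Vegfa, the growth factor of blood vessels. Endothelial cells rely on glycolysis for most of their energy.

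HIF-1 binds the core letters ACGTG or GCGTG in DNA, so the promoters of the members are shown as the place where such letters could lie. RefSeq entries of the GRCr8 assembly gave 12 promoters for 9 of the 10 genes, and there was none for Pgk1. The 250 bases before each start were searched on both strands for both cores. Of the 12 windows, 6 (50%) held either core and 4 (33.3%) held ACGTG. Among all 33469 rat promoters of the same length, 36.7% held either core and 16.6% held ACGTG, and among the 9984 promoters of genes tested below the shares were 55.5% and 21.8%. The following 4 windows include those of the genes with the most matches, Ldha and Bnip3 with 4 each. The others are of the members whose levels rose most, Pfkfb3 with 2 matches and Hk2 with none. In each of Ldha, Bnip3 and Pfkfb3, 2 of the matches overlap in 1 palindrome (CACGTG). Capitals mark the matches, and the letters run 5′ to 3′ along the gene.
Pfkfb3 (chr17:71944683-71944932, plus strand): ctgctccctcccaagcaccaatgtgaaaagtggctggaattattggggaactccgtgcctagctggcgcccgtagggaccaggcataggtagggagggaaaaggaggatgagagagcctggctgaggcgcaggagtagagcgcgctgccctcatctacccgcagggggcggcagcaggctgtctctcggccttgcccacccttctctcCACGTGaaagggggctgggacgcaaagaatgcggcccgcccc
Ldha (chr1:106507842-106508091, plus strand): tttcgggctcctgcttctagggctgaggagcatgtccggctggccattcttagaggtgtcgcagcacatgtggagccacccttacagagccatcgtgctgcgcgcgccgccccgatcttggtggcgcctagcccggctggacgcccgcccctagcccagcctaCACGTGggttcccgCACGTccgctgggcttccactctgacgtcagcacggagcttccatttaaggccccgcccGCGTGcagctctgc
Bnip3 (chr1:203154963-203155212, minus strand): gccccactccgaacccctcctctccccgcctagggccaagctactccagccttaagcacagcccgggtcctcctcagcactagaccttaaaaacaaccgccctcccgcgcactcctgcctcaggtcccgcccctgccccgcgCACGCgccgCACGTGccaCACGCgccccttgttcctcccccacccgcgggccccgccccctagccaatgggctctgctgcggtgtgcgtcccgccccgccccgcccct
Hk2 (chr4:116841276-116841525, minus strand): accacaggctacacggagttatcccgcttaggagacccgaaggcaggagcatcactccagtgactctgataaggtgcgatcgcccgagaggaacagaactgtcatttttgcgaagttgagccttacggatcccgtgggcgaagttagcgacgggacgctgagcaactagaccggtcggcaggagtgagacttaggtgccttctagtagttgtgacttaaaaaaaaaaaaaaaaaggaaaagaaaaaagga
A match is a description of the letters in the window and says nothing of binding in these cells. Except for Aldoa (below), the starts were not matched to the transcripts measured. In the Rnor_6.0 assembly, transcripts of Pfkfb3 began as early as 70632656, where the annotated ones began at 70684134. Those of Pfkp, on the minus strand, began at 68574466 against 68559471 for the annotated one. Pfkp held 1 match, Pdk1 held 2, and the windows of Pkm and Vegfa held none.

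Expression was deposited as FPKM (fragments scaled to transcript length and library size) for each transcript, and the values of the transcripts of a gene were summed. Positions of genes below are those of the files, in Rnor_6.0, from the first to the last base of their transcripts. The steps between low values placed the depth at 5.44 to 7.49 gigabases aligned per library, and each member had at least 243 read lengths of 150 bases in every library, counted as aligned bases divided by the read length. Correlations of log2 values between replicates lay between 0.963 and 0.975, and those between libraries of different groups between 0.8585 and 0.9755. The label of the cells was checked against marker genes, of which 9 of 10 endothelial ones were in the table. Tie1 was at 0 in all 15 libraries, the means of Cdh5, Cldn5, Vwf, Tek and Esam were at or below 0.310 FPKM in every group, Kdr had means of 0.323 to 0.812, Egfl7 of 1.81 to 2.51 and Flt1 of 2.72 to 4.09, and the summed endothelial level was 3.79 to 8.54 FPKM. Of the 9, 6 were thus at or near 0 and 3 were detected at low levels, and the cells are called BMECs here after the label alone. By contrast, all 6 fibroblast markers (Col1a1, Col1a2, Col3a1, Dcn, Lum and Pdgfra) were present, with sums of 1798 to 1987 FPKM in the control group, 1437 to 1547 (5 Gy) and 1273 to 1378 (20 Gy) at 12 h, and 284 to 314 (5 Gy) and 272 to 326 (20 Gy) at 24 h. The members of this list moved unequally: Col1a1 had means of 516.1 FPKM in the control group and 27.0 and 31.4 at 24 h, Col1a2 414.4 and then 22.4 and 30.7, and Col3a1 534.7 and then 26.9 and 36.6, while Dcn went from 195.5 to 82.3 and 82.8, Lum from 206.8 to 76.0 and 62.7, and Pdgfra was at 52.1 in the control group and at 60.8 and 51.6 at 24 h. The summed pericyte markers were at 152 to 160 FPKM in the control group and at 49.9 to 87.7 at 24 h. Kcnj8 and Abcc9 were at 0, and Rgs5 had means of 0.0758 or less in every group. The sum was thus almost all Anpep, Pdgfrb and Cspg4, with means of 96.7, 44.5 and 14.7 FPKM in the control group. The part of these shifts in the results on the members was not tested. In bulk libraries, fewer cells of a type and less RNA per cell cannot be told apart.

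The members spanned a wide range of levels. In the control group the order of mean FPKM was Aldoa (635.0), Ldha (246.7), Pkm (174.5), Pgk1 (152.3), Bnip3 (28.9), Pfkp (13.5), Hk2 (10.9), Pdk1 (8.89), Vegfa (6.08) and Pfkfb3 (2.70). Between neighbours in this order, the libraries of Pkm and Pgk1 and those of Pfkp and Hk2 overlapped. Aldoa, Ldha, Pkm, Pgk1 and Bnip3 held ranks 1 to 5 in all 5 groups, although at 24 h the libraries of Bnip3 overlapped with those of Hk2 after 5 Gy and of Pfkfb3 after 20 Gy. The reordering was among the other 5 genes. At 24 h after 5 Gy, Hk2 (23.9) and Pfkfb3 (18.9) overlapped with each other and were followed by Vegfa (12.0), Pdk1 (8.75) and Pfkp (3.15). Pfkp, which stood above these 4 genes in the control group, was the lowest of the 10 at 24 h after either dose.

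**Figure D1:**
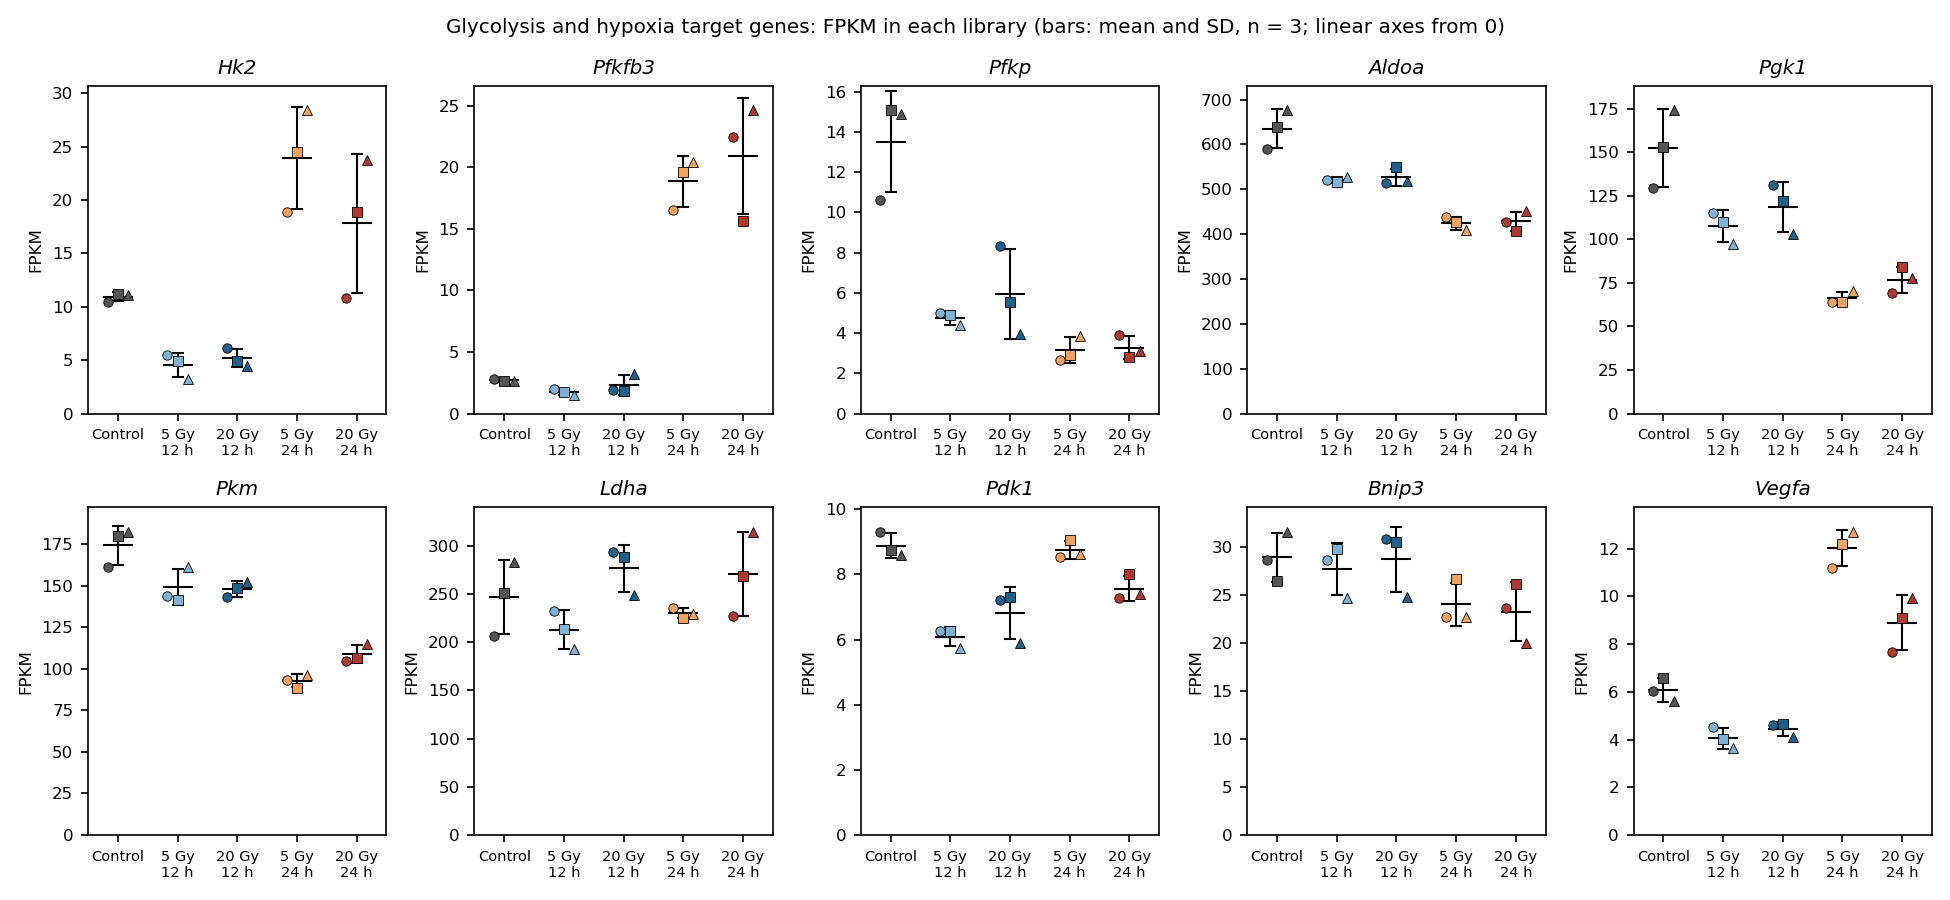
FPKM of the 10 genes in each of the 15 libraries (points; circle, square and triangle are replicates 1, 2 and 3), with the mean and SD of each group of 3; every axis is linear and starts at 0. Hk2 and Vegfa lie below control at 12 h, while Pfkfb3 overlaps with it after 20 Gy. Hk2, Pfkfb3 and Vegfa lie above control at 24 h, except that Hk2 overlaps with it after 20 Gy. Pfkp, Aldoa, Pgk1 and Pkm lie below control at 24 h, and Ldha and Bnip3 overlap with control in most groups.

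At 12 h the members that were called were lower. At 24 h some were called higher and some lower, in numbers near the shares of all genes given below. Changes were tested with limma on log2(FPKM + 1) over all 17895 genes whose FPKM averaged 0.5 or more. Assembled loci without a gene name counted as genes of their own in this set. A gene was called when its Benjamini-Hochberg adjusted p was under 0.05 and its fold change at least 1.5. All 10 members passed the filter on low values. At 12 h after 5 Gy, 0 members were called higher and 2 lower (Hk2 and Pfkp), against 4.98% and 4.96% of all genes tested. At 12 h after 20 Gy it was again 0 higher and the same 2 genes lower, against 4.90% and 3.64%. At an unadjusted p under 0.05 (limma) there were 8 and 7 members at 12 h. The share of all genes at that looser threshold was not taken. These counts, and those at the same threshold below, therefore cannot be set against the shares of genes called. At 24 h after 5 Gy, 3 were higher (Hk2, Pfkfb3 and Vegfa) and 3 lower (Pfkp, Pgk1 and Pkm), against 20.5% and 20.8%. At 24 h after 20 Gy, 1 was higher (Pfkfb3) and 3 lower (Pfkp, Pgk1 and Pkm), against 17.0% and 23.3%; after rescaling to TPM it was 3 higher and 3 lower.

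The median log2 change of the members at 12 h was -0.46 (5 Gy) and -0.31 (20 Gy), where the medians of all genes were 0.03 and 0.01. At 24 h it was -0.17 after 5 Gy and -0.26 after 20 Gy, where those of all genes were -0.05 and -0.14. Scaling moved the median of all genes by over 0.1 at 24 h: quantile normalization put it at -0.03 after 20 Gy, and rescaling to TPM put it at 0.06 after 5 Gy. The 4 comparisons share the control libraries, so their values are given side by side. With 3 libraries against 3, an exact permutation test of a single gene cannot give a two-sided p below 0.1, which groups that do not overlap reach.

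**Figure D2:**
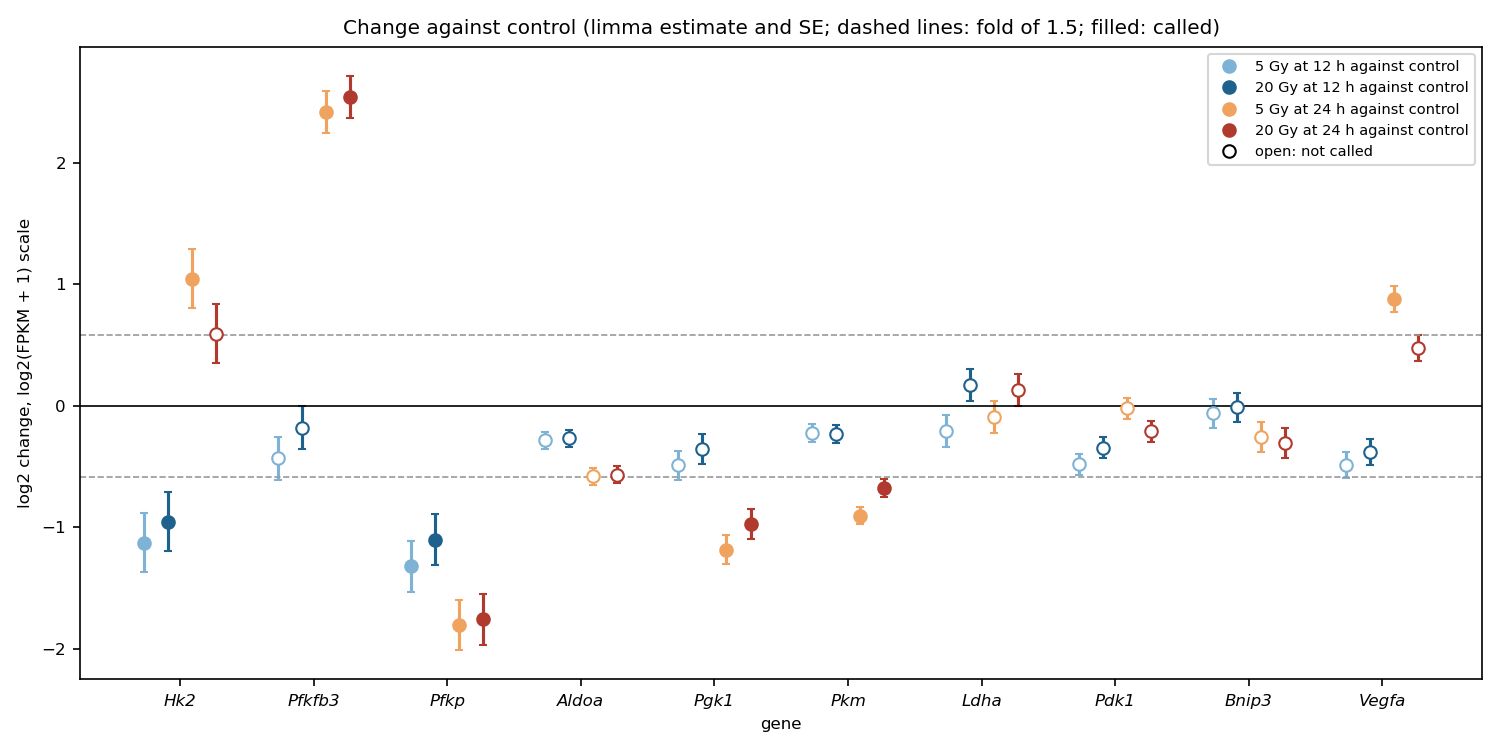
Log2 change against the control group for the 10 genes (limma estimate on the log2(FPKM + 1) scale with its SE); filled points were called, open points were not, and dashed lines mark a fold of 1.5. Pfkfb3 at 24 h stands highest (2.42 and 2.54), Pfkp at 24 h lowest (-1.80 and -1.76), and Ldha and Bnip3 stay between -0.31 and 0.17.

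Time was compared within each dose as well. From 12 h to 24 h after 5 Gy, 3 members were called higher (Hk2, Pfkfb3 and Vegfa) and 2 lower (Pgk1 and Pkm), against 17.1% and 19.3% of all genes. After 20 Gy, 3 were called higher (the same 3 genes) and 2 lower (Pfkp and Pgk1), against 14.1% and 22.1%. With quantile normalization, both comparisons had 3 higher and 0 lower.

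Hk2 (chr4:113559427-113610243, minus strand), which catalyses the first step of glycolysis, fell at 12 h and rose above control at 24 h after 5 Gy. In the control libraries it was at 10.4, 11.2 and 11.1 FPKM. The libraries at 12 h held 5.49, 4.90 and 3.26 FPKM after 5 Gy and 6.18, 4.96 and 4.46 after 20 Gy. All 6 libraries at 12 h lay below all 3 controls. The libraries at 24 h held 18.8, 24.5 and 28.4 FPKM after 5 Gy and 10.9, 18.8 and 23.7 after 20 Gy. The libraries after 5 Gy lay above the controls, while replicate 1 after 20 Gy lay among them. The log2 change was -1.12 ± 0.24 (SE; limma adjusted p = 0.00628) for 5 Gy at 12 h and -0.95 ± 0.24 (adjusted p = 0.0178) for 20 Gy at 12 h. When control replicate 2 or 3 or replicate 2 or 3 of the 20 Gy group was left out, the adjusted p of the latter was 0.0541 to 0.0695. At 24 h the log2 change was 1.05 (adjusted p = 0.00237) after 5 Gy and 0.59 (adjusted p = 0.0504, limma) after 20 Gy. In replicate 1 after 20 Gy, 44.0% of the Hk2 FPKM was on an assembled transcript that held at most 7.97% in every other library, and without that replicate the change after 20 Gy was 0.89 (adjusted p = 0.00280). Without replicate 2 or 3 of the same group it was 0.52 (adjusted p = 0.129) or 0.36 (adjusted p = 0.217), and at 0.59 it was called without replicate 3 of the 5 Gy group at 12 h (adjusted p = 0.0414) or replicate 1 of that at 24 h (adjusted p = 0.0476, limma). Between 12 h and 24 h, Hk2 rose by 2.17 after 5 Gy (adjusted p = 8.98e-06) and by 1.55 after 20 Gy (adjusted p = 1.54e-04), both by limma.

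Pfkfb3 rose more than any other member. Its 3 control libraries were at 2.82, 2.63 and 2.64 FPKM. The values at 12 h were 2.01, 1.71 and 1.52 FPKM after 5 Gy and 1.93, 1.81 and 3.22 after 20 Gy, and neither change was called (-0.43 and -0.18, limma adjusted p = 0.108 and 0.551). The values at 24 h were 16.5, 19.6 and 20.5 FPKM after 5 Gy and 22.4, 15.6 and 24.6 after 20 Gy. The lowest library at 24 h stood far above the highest of the other 9, and the group means were 6.99-fold and 7.74-fold that of the control group. On the log2 scale the rise was 2.42 ± 0.18 (adjusted p = 1.74e-07) after 5 Gy and 2.54 ± 0.18 (adjusted p = 1.20e-07) after 20 Gy, and from 12 h to 24 h it was 2.85 and 2.72 (limma). The gene lay at chr17:70632656-70713983 (Rnor_6.0, plus strand) with 9 transcripts, of which 5 were assembled by the authors and the 4 annotated ones held 17.5% of the FPKM. Single transcripts varied widely between replicates, so the level of the whole gene was used.

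Pfkp, a phosphofructokinase, was called lower in every exposed group. It went from 10.6, 15.1 and 14.9 FPKM in the control group to 5.01, 4.89 and 4.38 (12 h, 5 Gy) and to 8.35, 5.54 and 3.93 (12 h, 20 Gy). By 24 h the libraries held 2.65, 2.92 and 3.88 FPKM after 5 Gy and 3.90, 2.81 and 3.13 after 20 Gy. All 12 exposed libraries lay below all 3 controls. The log2 changes were -1.32, -1.10, -1.80 and -1.76 in that order, each ± 0.21, with limma adjusted p from 9.49e-06 to 0.00345. From 12 h to 24 h the fall of 0.66 after 20 Gy was called (adjusted p = 0.0178), and the change of -0.48 after 5 Gy was not (adjusted p = 0.0679). Without replicate 1 of the 20 Gy group at 12 h the former was -0.42 (adjusted p = 0.0848), without replicate 2 at 24 h it was -0.58 (adjusted p = 0.0590), and without replicate 3 of the 5 Gy group at 24 h the latter was -0.60 (adjusted p = 0.0460). Nearly all of the signal was on 1 assembled transcript, and the annotated one held 0.840% of it. The files place Pfkp on the minus strand (chr17:68510622-68574466) of Rnor_6.0, and GRCr8 has it on the plus strand.

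The later enzymes of glycolysis, which were abundant, went down by less. Aldoa, which splits the hexose bisphosphate into trioses, was at 589.9, 638.9 and 676.3 FPKM in the control group. It was at 519.8, 516.0 and 527.9 (12 h, 5 Gy) and at 513.6, 548.8 and 518.1 (12 h, 20 Gy). Later, at 24 h, Aldoa was at 437.6, 427.0 and 408.5 after 5 Gy and at 426.0, 408.1 and 451.1 after 20 Gy. The control libraries, those at 12 h and those at 24 h formed 3 ranges that did not overlap. The log2 change was -0.28 and -0.27 at 12 h and -0.58 and -0.57 at 24 h (± 0.07, limma adjusted p from 1.36e-05 to 0.0204), which was short of the fold limit, so none was called. At 24 h it passed that limit when control replicate 1 was left out (-0.63 and -0.62), when replicate 1 after 5 Gy was (-0.60) and when replicate 3 after 20 Gy was (-0.60).

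Pgk1 (chrX:77263359-77279367, plus strand), which makes the first ATP of the pathway, went from 129.6, 153.2 and 174.2 FPKM in the control group to 64.1, 63.8 and 70.4 (24 h, 5 Gy) and to 69.1, 83.9 and 77.8 (24 h, 20 Gy). No library at 24 h came near the lowest control. At 12 h it was at 115.4, 110.2 and 97.3 FPKM after 5 Gy and at 131.0, 122.2 and 103.0 after 20 Gy. The log2 change was -1.18 (adjusted p = 3.20e-06) and -0.97 (adjusted p = 1.89e-05) at 24 h, each ± 0.12 by limma. At 12 h it was -0.49 after 5 Gy and -0.35 after 20 Gy (limma adjusted p = 0.0133 and 0.0640), both under the fold limit. Neither was called, although without control replicate 1 the change after 5 Gy was -0.60 and called (adjusted p = 0.00609). From 12 h to 24 h Pgk1 fell by 0.69 after 5 Gy and by 0.62 after 20 Gy (limma adjusted p = 3.41e-04 and 8.47e-04). The latter was -0.54 and under the fold limit without replicate 1 of either 20 Gy group.

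Pkm (chr8:64481172-64502722, plus strand), the last enzyme of the pathway, was at 161.1, 179.8 and 182.6 FPKM in the control group. The libraries at 12 h were at 144.1, 141.8 and 161.5 after 5 Gy and at 143.3, 148.5 and 152.4 after 20 Gy. The changes of -0.23 and -0.23 (limma adjusted p = 0.0487 and 0.0459) were under the fold limit and not called. By 24 h Pkm stood at 93.6, 88.5 and 96.3 after 5 Gy and at 104.8, 106.8 and 114.8 after 20 Gy. Every library at 24 h was below every other library. The fall at 24 h was called after 5 Gy (-0.90 ± 0.07, adjusted p = 4.36e-07) and after 20 Gy (-0.68 ± 0.07, adjusted p = 5.73e-06, limma), the latter not with quantile normalization (-0.45). From 12 h to 24 h it fell by 0.68 after 5 Gy, while the change of -0.44 after 20 Gy was under the fold limit. Aldoa, Pgk1, Pkm and Ldha have processed copies elsewhere in mammalian genomes, and how reads with several matches were counted is not given in the sources used here, so their levels are uncertain to that extent.

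Within Aldoa the loss was uneven between transcripts. The gene (chr1:198228387-198233588, Rnor_6.0, minus strand) had 3 annotated transcripts with different first bases, at 198232344 (ENSRNOT00000080988), 198233215 (ENSRNOT00000087928) and 198233588 (ENSRNOT00000088473). RefSeq has 3 starts of Aldoa in GRCr8, with the same gaps of 871 and 373 bases, so the starts were paired in order. The windows of 250 bases before these starts, in GRCr8, are shown since the transcripts differ there. Capitals mark the single ACGTG match.
Aldoa, before the start that pairs with ENSRNOT00000080988 (chr1:190836778-190837027, minus strand): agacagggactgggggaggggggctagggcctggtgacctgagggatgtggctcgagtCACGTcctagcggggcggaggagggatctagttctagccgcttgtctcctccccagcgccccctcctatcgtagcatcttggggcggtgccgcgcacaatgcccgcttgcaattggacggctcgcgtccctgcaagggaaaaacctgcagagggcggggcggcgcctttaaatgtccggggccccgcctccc
Aldoa, before the start that pairs with ENSRNOT00000087928 (chr1:190837649-190837898, minus strand): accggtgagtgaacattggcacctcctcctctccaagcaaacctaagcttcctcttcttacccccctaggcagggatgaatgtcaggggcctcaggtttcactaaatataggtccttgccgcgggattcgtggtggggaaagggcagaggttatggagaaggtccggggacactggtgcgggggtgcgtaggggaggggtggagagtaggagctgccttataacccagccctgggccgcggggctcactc
Aldoa, before the start that pairs with ENSRNOT00000088473 (chr1:190838022-190838271, minus strand): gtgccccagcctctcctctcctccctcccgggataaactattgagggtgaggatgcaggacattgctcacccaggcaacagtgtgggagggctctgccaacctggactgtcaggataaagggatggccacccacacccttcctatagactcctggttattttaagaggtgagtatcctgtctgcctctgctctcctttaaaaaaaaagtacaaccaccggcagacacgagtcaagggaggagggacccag
The windows of ENSRNOT00000087928 and ENSRNOT00000088473 both held no match. Of the 3 transcripts, ENSRNOT00000087928 fell most. In the control group this transcript was at 168.1, 194.3 and 232.9 FPKM and made up 31.1% ± 3.0 (SD, n = 3) of Aldoa. It was at 116.5, 95.4 and 55.5 FPKM (12 h, 5 Gy) and at 109.6, 102.2 and 72.8 (12 h, 20 Gy). The values at 24 h were 58.2, 80.3 and 66.2 FPKM after 5 Gy and 33.4, 53.1 and 61.7 after 20 Gy, with shares of 16.1% ± 2.8 and 11.5% ± 3.2. No exposed library reached the lowest control. In a fit over all 41932 transcripts whose FPKM averaged 0.5 or more, added after the data were seen, its log2 change was -1.20, -1.07, -1.53 and -2.02 in these groups, called in all but 12 h after 20 Gy (limma adjusted p = 0.0353, 0.0654, 0.00189 and 2.78e-04). The other two transcripts were not called against control in any group. ENSRNOT00000080988, the most abundant at 324.1, 335.6 and 334.9 FPKM in the control group, had changes of -0.26 and -0.23 at 24 h, and ENSRNOT00000088473 had -0.40 and -0.20. At the 24 h time, 12.1% of transcripts were called higher and 12.0% lower after 5 Gy, and 10.6% and 13.6% after 20 Gy. The 3 transcripts overlap, and how the reads they share were divided rests on the authors' transcript assembly.

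**Figure D3:**
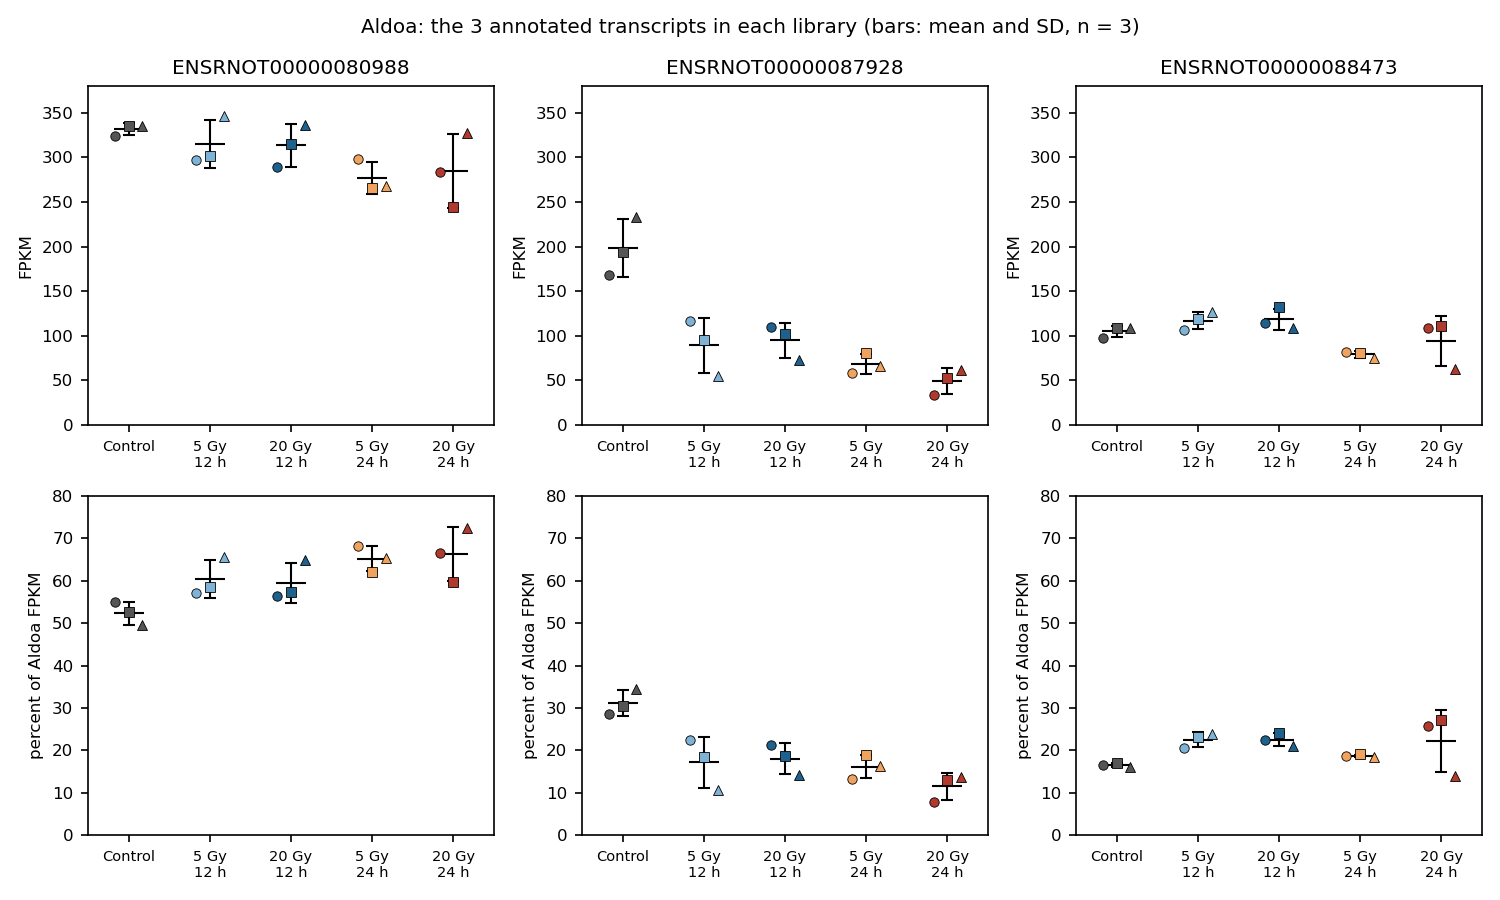
The 3 annotated Aldoa transcripts in each library, as FPKM (upper row) and as percent of the summed Aldoa FPKM (lower row), with the mean and SD of each group of 3; all axes start at 0. ENSRNOT00000087928 lies at 168.1 FPKM or more in the control libraries and at 116.5 or less in the exposed ones, while the other transcripts overlap more.

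Pkm also had 2 annotated transcripts, and ENSRNOT00000015332 (11 exons) was called lower at 24 h after 5 Gy (-1.07, adjusted p = 0.00123) and after 20 Gy (-1.11, adjusted p = 9.49e-04), while ENSRNOT00000083666 (10 exons) was not (-0.66 and -0.09, limma). At 24 h their shares varied more between replicates than in Aldoa: ENSRNOT00000015332 made up 66.7 to 70.1% of Pkm in the control group, 46.5 to 69.8% (5 Gy) and 43.3 to 66.6% (20 Gy) at 24 h. The range after 5 Gy overlapped with that of the control group, and the range after 20 Gy lay just below it.

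Ldha (chr1:102900286-102909707, plus strand), which makes lactate, had the smallest changes of the enzymes. Its control libraries were at 206.5, 250.8 and 282.8 FPKM. The libraries at 12 h were at 232.8, 213.4 and 192.9 FPKM after 5 Gy and at 293.1, 288.6 and 248.7 after 20 Gy. Those at 24 h were at 235.8, 225.2 and 229.4 FPKM after 5 Gy and at 227.6, 268.9 and 314.6 after 20 Gy. Every exposed group overlapped with the control group. The log2 changes were between -0.20 and 0.17 (± 0.13, limma adjusted p from 0.324 to 0.587), and that at 24 h after 5 Gy was -0.09, or 0.22 with quantile normalization and 0.06 after rescaling to TPM.

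Pdk1 (chr3:58530870-58559705, plus strand), the kinase that holds pyruvate dehydrogenase inactive, was low at 12 h, and at 24 h it was back among the controls after 5 Gy and still below them after 20 Gy. It was at 9.31, 8.75 and 8.59 FPKM in the control group, at 6.26, 6.27 and 5.75 (12 h, 5 Gy) and at 7.22, 7.32 and 5.90 (12 h, 20 Gy). All 6 libraries at 12 h lay below the controls, with changes of -0.48 (adjusted p = 0.00206) and -0.34 (adjusted p = 0.0164) by limma, both under the fold limit. By 24 h Pdk1 stood at 8.55, 9.06 and 8.63 FPKM after 5 Gy and at 7.27, 8.01 and 7.41 after 20 Gy. The change at 24 h was -0.02 after 5 Gy, which turned to 0.12 after rescaling to TPM, and -0.21 after 20 Gy (limma adjusted p = 0.0542), where all 3 libraries lay below all 3 controls. From 12 h to 24 h it was 0.46 after 5 Gy (adjusted p = 5.98e-04, under the fold limit) and 0.14 after 20 Gy.

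Bnip3 (chr1:211248098-211265282, minus strand) was not called in any comparison. It was at 28.6, 26.5 and 31.6 FPKM in the control group, at 28.6, 29.8 and 24.6 (12 h, 5 Gy) and at 30.9, 30.5 and 24.8 (12 h, 20 Gy). The changes at 12 h were -0.06 and -0.01, and the latter was 0.01 with quantile normalization and 0.03 after rescaling to TPM. The libraries at 24 h were at 22.7, 26.6 and 22.7 FPKM after 5 Gy and at 23.7, 26.2 and 20.0 after 20 Gy. The libraries after 20 Gy lay just below the controls, with a change of -0.31 ± 0.12 (limma adjusted p = 0.0442, under the fold limit), and those after 5 Gy overlapped with them.

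Vegfa (chr9:17339835-17355681, plus strand), like Hk2, was low at 12 h and high at 24 h. It was at 6.05, 6.60 and 5.60 FPKM in the control group. The libraries at 12 h were at 4.52, 4.02 and 3.62 after 5 Gy and at 4.60, 4.63 and 4.09 after 20 Gy, all below the controls, with changes of -0.49 (adjusted p = 0.00666) and -0.38 (adjusted p = 0.0284) under the fold limit (limma). By 24 h Vegfa stood at 11.2, 12.2 and 12.7 after 5 Gy and at 7.66, 9.10 and 9.93 after 20 Gy. Both groups lay above the controls, and the libraries after 5 Gy lay above those after 20 Gy. The rise of 0.88 ± 0.11 after 5 Gy was called (adjusted p = 1.34e-05), and the change of 0.48 after 20 Gy was under the fold limit (adjusted p = 0.00180). After rescaling to TPM the latter was 0.59 and called. From 12 h to 24 h Vegfa rose by 1.37 after 5 Gy and by 0.86 after 20 Gy (limma adjusted p = 4.04e-07 and 2.24e-05). The gene had 17 transcripts, 11 of them assembled, with 48.8% of the FPKM on annotated ones. Its most abundant transcript alone had changes of 0.43 and -0.51 at 24 h, neither called, so the rise was seen in the sum over transcripts.

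The doses were then compared at each time. At 12 h, 0 of the 10 members were called higher or lower after 20 Gy than after 5 Gy, against 0.117% and 0.00559% of all genes. The counts at 24 h were also 0 and 0, against 0.956% and 1.46%. At an unadjusted p under 0.05 there was 1 member at 12 h and there were 3 at 24 h (limma). Ldha at 12 h was 0.38 ± 0.13 higher after 20 Gy (limma adjusted p = 0.522), with no overlap between the groups. At 24 h Vegfa had a difference of -0.40 (20 Gy minus 5 Gy) ± 0.11 (adjusted p = 0.0531), Pkm had a difference of 0.23 ± 0.07 (adjusted p = 0.102) and Pdk1 one of -0.19 ± 0.09 (adjusted p = 0.249). For all of Vegfa, Pkm and Pdk1 the 3 libraries of each dose did not overlap. Ldha and these genes were named for their p in the same libraries, so the lack of overlap adds no separate support. The share of all genes at that unadjusted threshold, or without overlap, was not taken.

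Whether the change from 12 h to 24 h differed between the doses was tested in the same fit, with no fold limit. It was called for 0 members, against 0.257% of all genes with a larger value after 20 Gy and 0.296% with a smaller one. At an unadjusted p under 0.05 there were 3 members: Vegfa (-0.51 ± 0.15, adjusted p = 0.164), Pdk1 (-0.32 ± 0.12, adjusted p = 0.290) and Pkm (0.24 ± 0.10, adjusted p = 0.361), all by limma. A p that misses the threshold does not show that the doses act alike.

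The other genes of these pathways were taken from lists that leave out the members. Of 21 further glycolysis enzymes and transporters, 1 was called higher and 2 lower at 12 h after either dose, 4 higher and 9 lower at 24 h after 5 Gy, and 3 higher and 7 lower at 24 h after 20 Gy. For this list and those that follow, the shares of all genes called higher and lower were 4.98% and 4.96% (5 Gy) and 4.90% and 3.64% (20 Gy) at 12 h, and 20.5% and 20.8% (5 Gy) and 17.0% and 23.3% (20 Gy) at 24 h. The median log2 change of the 21 genes at 24 h was -0.47 and -0.39. The gene that rose most was Pdk4, a second pyruvate dehydrogenase kinase, from 1.30 ± 0.12 FPKM in the control group to 7.58 ± 1.12 and 7.64 ± 2.05 at 12 h, and 12.3 ± 1.5 (5 Gy) and 33.2 ± 5.8 (20 Gy) at 24 h (SD, n = 3). Its change was called in all 4 groups, and its change over time was larger after 20 Gy (1.36, limma adjusted p = 0.0276). Slc2a3, a glucose transporter, rose by 3.04 and 1.67 at 24 h, though its libraries after 20 Gy spread widely (10.7 ± 8.8 FPKM). Slc16a1, a lactate and pyruvate carrier, rose by 1.01 and 0.85. Slc2a1, the main glucose transporter of brain endothelium, was called lower at 12 h (-0.69 and -0.72) and not at 24 h (-0.27 and -0.42). Of the enzymes, Aldoc was called lower in all 4 groups (-0.93, -1.12, -1.71 and -1.87), Eno1 at 24 h after both doses (-1.10 and -0.99) and Tpi1 at 24 h after 5 Gy (-1.07), where 20 Gy gave -0.39.

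Of 9 genes of oxygen sensing, 0 were called at 12 h, 3 were higher and 1 lower at 24 h after 5 Gy, and 3 were higher and 2 lower at 24 h after 20 Gy, where 20.5% and 20.8% of all genes were after 5 Gy and 17.0% and 23.3% after 20 Gy. At an unadjusted p under 0.05 there were 6 and 4 at 12 h after 5 Gy and 20 Gy (limma), with no share of all genes taken at that threshold. Both subunits of HIF-1 rose at 24 h, Hif1a from 25.3 ± 0.03 FPKM in the control group to 45.3 ± 2.5 and 41.7 ± 6.3, and Arnt from 18.6 ± 2.3 to 39.7 ± 1.6 and 46.5 ± 4.3 (SD, n = 3). Vhl, whose protein marks Hif1a for degradation, also rose (0.80 and 0.67). Egln2, a prolyl hydroxylase that reads oxygen, fell (-0.90 and -0.80), and Egln3, a hydroxylase that is itself a target of HIF, was not called (0.54 and 0.49). Hif3a fell after 20 Gy (-1.20), with control libraries that spread widely (17.7 ± 11.7 FPKM). Epas1, the HIF-2 alpha subunit, was not called against control (-0.39 and -0.28) and fell from 12 h to 24 h (by 0.77 and by 0.76, limma adjusted p = 2.95e-04 and 3.66e-04). These are transcript levels, and Hif1a is controlled by oxygen mainly as a protein.

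Of 25 other hypoxia targets, a list that shares Egln3 and Slc2a1 with those above, 1 was higher and 4 lower at 12 h after either dose, and 4 were higher and 5 lower at 24 h after either dose. The counts at 24 h were near the shares of all genes (20.5% and 20.8% after 5 Gy, 17.0% and 23.3% after 20 Gy). The median change of the 25 at 24 h was 0.00 after 5 Gy and -0.20 after 20 Gy. Hmox1, which degrades heme, was also lower at 12 h and higher at 24 h, at 142.2 ± 6.7 FPKM in the control group, 62.4 ± 8.3 and 65.4 ± 4.9 at 12 h and 254.2 ± 20.9 and 250.7 ± 24.2 at 24 h (SD, n = 3). Bhlhe40, a transcription repressor, rose at 24 h (1.03 and 1.12). Adm, a vasodilator peptide, fell at 24 h (-1.97 and -1.46), as did Higd1a, a mitochondrial protein (-1.55 and -1.07), and Ndrg1 (-0.94 and -0.73). Ddit4, an inhibitor of mTORC1, rose at 12 h (1.03 and 1.13) and was not called at 24 h (0.18 and -0.20).

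Of 7 tested genes of the VEGF family and its receptors other than Vegfa, 0 were higher and 1 lower at 12 h after either dose, and at 24 h 2 were higher and 0 lower after 5 Gy and 2 higher and 1 lower after 20 Gy, beside 4.98% and 4.96% (5 Gy) and 4.90% and 3.64% (20 Gy) of all genes at 12 h and 20.5% and 20.8% (5 Gy) and 17.0% and 23.3% (20 Gy) at 24 h. Pgf, a ligand of Flt1, fell at 12 h (-0.87 and -1.22) and rose at 24 h (1.12 and 0.76), as Vegfa did at 24 h after 5 Gy. At an unadjusted p under 0.05 (limma) 1 and 1 of the 7 passed at 12 h and 5 and 4 at 24 h, for 5 Gy and 20 Gy. Without the share of all genes at that threshold, which was not taken, these counts show nothing particular to this family. Vegfc, a growth factor of lymphatic vessels, rose at 24 h (1.07 and 1.14), and Nrp1, a co-receptor, fell after 20 Gy (-0.67). Of 6 genes of the pentose phosphate branch, 0 were called at 12 h (limma; 1 and 2 at an unadjusted p under 0.05), and 1 was higher and 1 lower at 24 h after either dose, which was near the shares of all genes at 24 h just given. Rpia, an isomerase of ribose phosphate, rose (0.90 and 0.86), and Tigar, which lowers the sugar bisphosphate that Pfkfb3 makes, fell (-0.79 and -0.78).

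**Figure D4:**
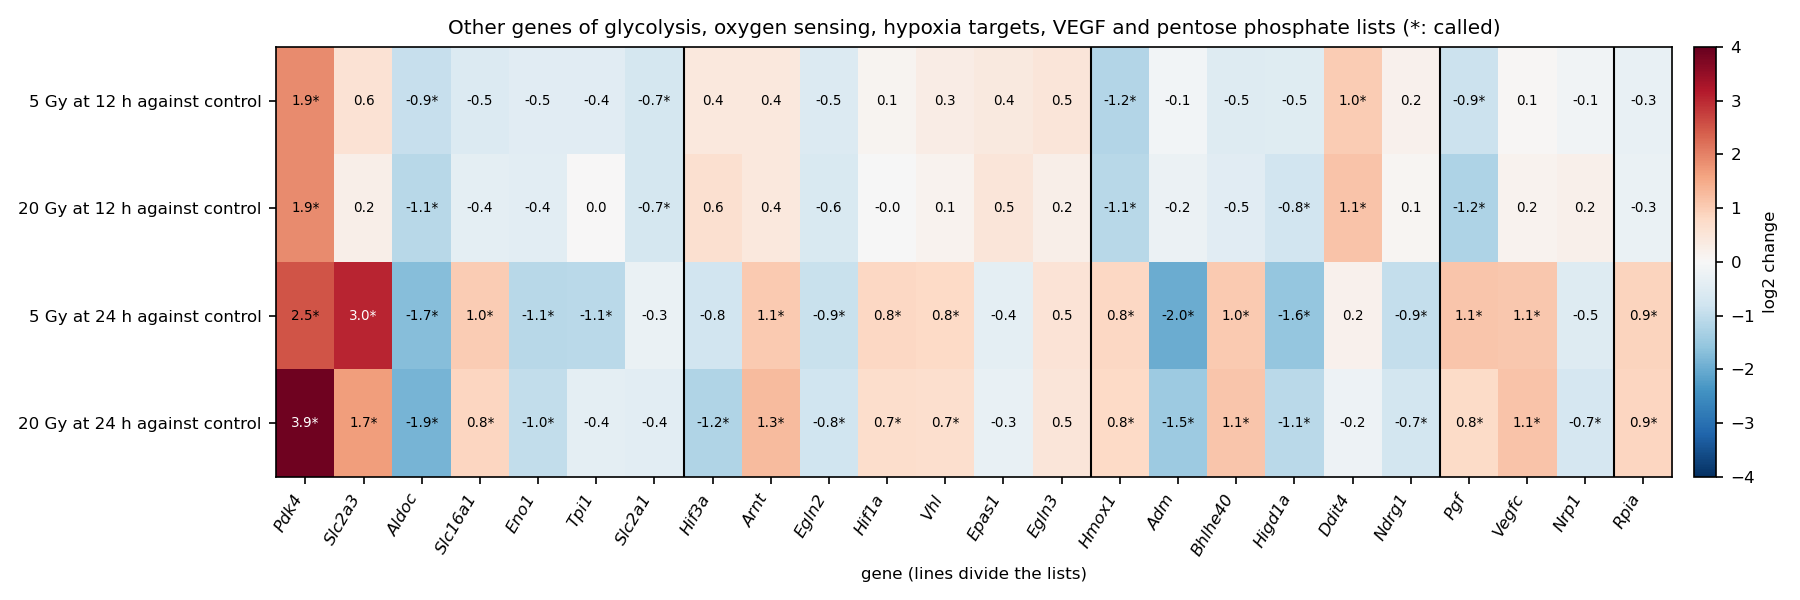
Log2 change against the control group (colour and number) of the named genes of the 5 lists, in the 4 exposed groups; an asterisk marks a called change and black lines divide the lists. Pdk4 is red in all rows (1.88 to 3.88), Aldoc blue in all rows, and Hmox1 and Pgf turn from lower at 12 h to higher at 24 h.

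For the 3 members of the largest change, the genes with the most similar 4 changes against control were sought among the 9553 genes that averaged 5 FPKM or more, by the root mean square (RMS) of the differences. Closest to Pfkfb3 were Siah2 (RMS 0.09), Zbtb1 (0.16) and Atxn7 (0.22). Closest to Pfkp were Msmo1 (0.10), RF00272 (0.16) and Tgfb1 (0.17). Closest to Pgk1 were Anxa1 (0.05), Eno1 (0.05), a later enzyme of glycolysis, and Emp3 (0.05). The closeness of 4 values that share their control libraries says nothing of a shared function.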

How the data were processed

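RNA sequencing libraries of primary BMECs were analysed, with 3 libraries in each of 5 groups. Per the labels and the methods of the study, the authors mapped reads of 150 bases to Rnor_6.0 with HISAT2 2.0.13, converted alignments with samtools 1.9 and assembled transcripts with StringTie 1.3.5. They deposited 1 table of FPKM values for 85322 transcripts, and kallisto and edgeR are also named, but counts were not used here. Rows were matched by gene name or, where that was missing, by a gene identifier that held only that name. Assembled loci without any gene name were kept as genes of their own. FPKM were summed per gene, which left 4738 transcripts unassigned and gave 37367 genes. The shares and medians of all genes therefore include such loci, while the members are all named genes. No rescaling between libraries was applied.

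Genes with a mean FPKM of at least 0.5 were tested on log2(FPKM + 1) with limma 3.58.1 in R 4.3.3, with a mean for each group, a variance prior that follows the mean, and 10 residual degrees of freedom. Single genes were also compared by two-sided exact permutation. A pseudocount of 1 understates the change of low genes. The depth of each library was read off the spacing of its low values, at a tolerance of 0.05 of a step (80.5 to 84.0% of values whole, against 8.40 to 9.02% for other steps), and could be off by a factor. On simulated data for 20 Gy at 24 h with 17895 genes, the pipeline called 77% of genes with a log2 change of 1 and 97% of those with 2, with 3 unchanged genes called. The simulation changed 200 genes and drew independent normal noise with no shift in scale. In the data, 17.0% of genes were called higher and 23.3% lower in this comparison, so the simulated rates need not hold there.

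The members and lists were chosen with earlier results of these data known. All 10 members are named. From the lists, genes called in any comparison with a mean FPKM of at least 5 are named, at most 6 a list with the largest change first, as well as Hif1a, Epas1, Egln3 and Slc2a1 whatever their values. Of the listed genes, Gapdh, Pfkfb4, Pgd and Pecam1 were not analysed here. A further gene of the pentose phosphate list is not reported here. Tigar was named after its values were seen. Promoters are from RefSeq (GRCr8), and positions of transcripts are those of the files (Rnor_6.0). Markers of other cells were summed too: astrocyte markers were at 12.4 to 14.5 FPKM in the control group and 19.7 to 32.9 in the exposed ones (Aldh1l1 for the most part, with Aqp4 at 0), neuron markers at 2.91 to 12.2, microglia markers at 0.00770 to 1.61 and oligodendrocyte markers at 0.254 to 1.22 over all libraries. Alternatives covered the pseudocount, filter, scaling, groups fitted, variance trend, replicate block, fold limit, transcript choice and each library left out.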

Additional observations from a re-analysis of the deposited data

Results flagged for a closer look

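Levels of several members differed between 12 h and 24 h within a dose, by the limma comparison of the times already given above. A call took a Benjamini-Hochberg adjusted p under 0.05 and a fold of at least 1.5. The same control group, labelled 12 h, stands behind both effects and cancels in their difference. The values below are therefore those of that comparison and no separate result. After 5 Gy, the log2 effect at 24 h minus that at 12 h was 2.17 for Hk2, 2.85 for Pfkfb3, 1.37 for Vegfa, -0.69 for Pgk1 and -0.68 for Pkm. After 20 Gy it was 1.55 for Hk2, 2.72 for Pfkfb3, 0.86 for Vegfa, -0.66 for Pfkp and -0.62 for Pgk1. Hk2 turned from called lower at 12 h to called higher at 24 h after 5 Gy. Among the other genes named, the change over time of Pdk4 was larger after 20 Gy than after 5 Gy, by 1.36 on the log2 scale. The time in culture differs between these groups along with the time after exposure, and the 2 cannot be told apart here. The summed fibroblast markers were at 1273 FPKM or more in every library at 12 h and at 326 or less in every library at 24 h, with the 3 collagens falling most and Pdgfra at means of 52.1 FPKM in the control group and 60.8 (5 Gy) and 51.6 (20 Gy) at 24 h, and their part in these differences was not tested.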

How the results depend on the processing

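The number of members called was within 1.5 times of that reported under most alternatives. It was 0 at 12 h after either dose with annotated transcripts only, since Pfkp then rests on a row below the filter and Hk2 was not called (adjusted p = 0.0917 and 0.173, limma), and 1 after either dose with the highest transcript alone. With a fold of at least 2 it was 1 for 20 Gy at 12 h, 2 for 20 Gy at 24 h, and 3 and 2 for the times compared after 5 Gy and 20 Gy. With quantile normalization it was 3 for the times compared after either dose. With each library left out in turn the range was 2 to 3 and 1 to 2 at 12 h after 5 Gy and 20 Gy, 6 to 7 and 4 to 5 at 24 h, 5 to 6 and 3 to 5 for the times compared, and 0 for the doses compared and for the change over time between the doses.

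Directions turned for small or transcript-level values. Bnip3 at 12 h after 20 Gy was 0.011 with quantile normalization and 0.034 after rescaling to TPM, and with libraries left out it was -0.072 to 0.086 (-0.12 to 0.017 after 5 Gy). Ldha at 24 h after 5 Gy was 0.22 with quantile normalization, 0.056 after rescaling to TPM and -0.21 to 0.016 with libraries left out. Its change from 12 h to 24 h after 20 Gy was 0.10 with quantile normalization and -0.16 to 0.075 with libraries left out. Pdk1 at 24 h after 5 Gy was 0.12 after rescaling to TPM, 0.052 with annotated transcripts only or the highest transcript alone, and -0.043 to 0.011 with libraries left out. With the highest transcript alone, after 20 Gy Vegfa was 0.040 at 12 h and -0.51 at 24 h, and its change from 12 h to 24 h after 20 Gy was -0.55, while Pkm at 24 h was -0.043 between the doses. The cause was not tested.

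Replicate numbers are shared between groups in the labels. Deviations of libraries with the same number correlated at -0.18 to 0.23 (over 0.1 in 4 of 30 pairs), which showed no pairing. With 3 libraries a group, this cannot exclude that cultures of the same number shared a preparation. A fit with the replicate block called 2 and 2 members at 12 h, 6 and 4 at 24 h, 5 and 5 for the times compared, and 0 for the remaining comparisons, as without it, and in 20 of 60 comparisons of a library with the 3 of another group it correlated best with the one of its own number. At 3 libraries a group, changes near the fold limit (Aldoa at 24 h, Hk2 and Vegfa at 24 h after 20 Gy) depend on the settings.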
